A study of Rattus norvegicus with 3 samples.

Results

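Thrombospondins, tenascins and related matricellular and elastic-fibre glycoproteins were followed as a set of 10 genes: Thbs1, Thbs2, Thbs3, Thbs4, Tnc, Postn, Fn1, Sparc, Eln and Fbn1. The genes were taken by name from the mRNA gene table, which held 22608 genes, and all 10 were found there. All 10 also passed the level filter, a mean of at least 1 CPM (the count per 1000000 gene counts of the library) over the libraries, which 14427 genes passed.

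Sciatic nerve RNA of male Sprague-Dawley (SD) rats was sequenced 30 days after injury in 3 libraries, 1 for each group. The AKBA library came from crushed nerve of animals given AKBA, acetyl-11-keto-beta-boswellic acid from frankincense resin. The model library came from crushed nerve without AKBA. It carries the treatment label control and is read as the injury model from the letter M of its title and the groups named for the series. The sham library came from nerve that was exposed but not crushed. The crush was made with vascular forceps. The sources used here give neither the AKBA dose nor the number of animals behind a library. With 1 library a group there is no replicate error, so every difference below is one between libraries, no p-value is given, and intervals cover counting error only.

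Matricellular proteins are secreted into the extracellular matrix, where they act on cells through integrins and other receptors and do not mainly build the scaffold. Thrombospondins, tenascin C, periostin and SPARC belong to this class, and fibronectin is an adhesive glycoprotein that several of them bind. Elastin and fibrillin are structural: fibrillin microfibrils carry elastin in elastic fibres and hold latent TGF-beta in the matrix. In peripheral nerve these proteins surround Schwann cells, fibroblasts, perineurium and vessels, and tenascin C and fibronectin are known to accumulate at sites of nerve injury.

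The libraries held 90071899 gene counts in AKBA, 89505656 in model and 74184217 in sham. The nerve label matched the marker genes: all 10 Schwann cell markers had counts in every library, with a summed level of 36464 CPM in AKBA, 41388 in model and 17946 in sham. Ribosomal RNA rows took 7.59% of the counts in AKBA, 4.20% in model and 11.5% in sham. The summed level of 20 skeletal muscle genes was 7329 CPM in AKBA, 1066 in model and 514 in sham. The median log2 ratio of all kept genes, on the log2 scale of (CPM + 1), was 0.18 between model and sham, -0.04 between AKBA and model, and 0.16 between AKBA and sham (the first-named library on top). With TMM scaling (which sets the bulk of genes equal) these medians became -0.02, 0.005 and 0.01, so that ratios against sham are best read relative to them.

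The 10 genes together took 1.40% of all gene counts in the AKBA library, 1.57% in the model library and 1.58% in the sham library. Within this near-level sum the members went different ways. The thrombospondin genes Thbs1, Thbs2 and Thbs4 and the elastin gene Eln were high in the AKBA library and low in the model library. Postn was highest in model and lowest in AKBA, and Fbn1 was lower in AKBA than in the other libraries. Tnc was higher in both crushed nerves than in sham, and Fn1 was lower in both. In CPM, Sparc and Thbs3 differed by at most 1.07-fold between any pair of libraries.

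**Figure D1:**
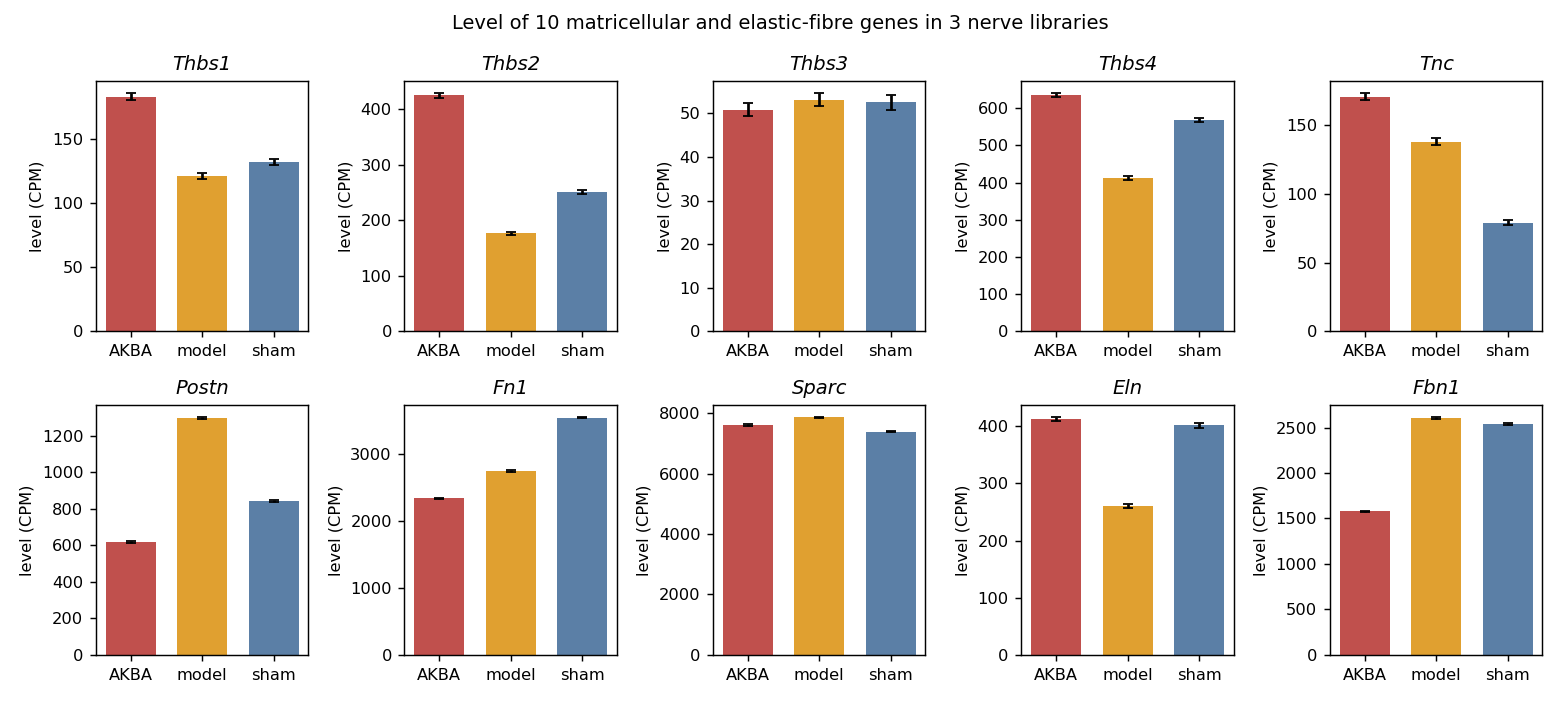
Level of each gene in CPM (vertical axes, starting at 0) in the AKBA, model and sham libraries, 1 library per bar, with exact 95% counting intervals as error bars. Thbs1, Thbs2, Thbs4 and Eln are lowest in model, Postn and Fbn1 are lowest in AKBA, and Tnc is lowest in sham at 79.1 CPM.

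At 2-fold, no member differed between model and sham, 2 differed between AKBA and model (Thbs2 higher and Postn lower), and 1 differed between AKBA and sham (Tnc higher). Over all kept genes the share at least 2-fold apart was 5.83% between model and sham, 4.05% between AKBA and model, and 7.91% between AKBA and sham. The members' 2 of 10 for AKBA against model stands above its background and the other counts lie near theirs. However, 10 genes give a coarse share. The members were also chosen with earlier results of these data known, so a share above the background is not read as a result about the set. At 1.5-fold, 3 members differed between model and sham, beside 18.8% of all genes. Between AKBA and model 6 did, beside 11.0%, and between AKBA and sham 4 did, beside 23.5%. The AKBA and model comparison therefore held the most members at either threshold. The comparisons share libraries, so a low model value raises AKBA against model and lowers model against sham for the same gene.

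The members split in direction in each comparison. For model against sham 5 were above 0 and 5 below, with a median log2 ratio of -0.05 beside 0.18 for all genes. With TMM scaling 2 were above 0 and 8 below. For AKBA against model 5 were above and 5 below, with a median of 0.13 beside -0.04. For AKBA against sham 6 were above and 4 below, with a median of 0.04 beside 0.16, and with TMM scaling 3 were above and 7 below. Among all genes, 4.52% were higher and 1.31% lower by 2-fold in model than in sham, against 2.61% and 2.03% with TMM scaling. For AKBA against sham 5.83% were higher and 2.08% lower, against 4.01% and 3.02% with TMM scaling.

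**Figure D2:**
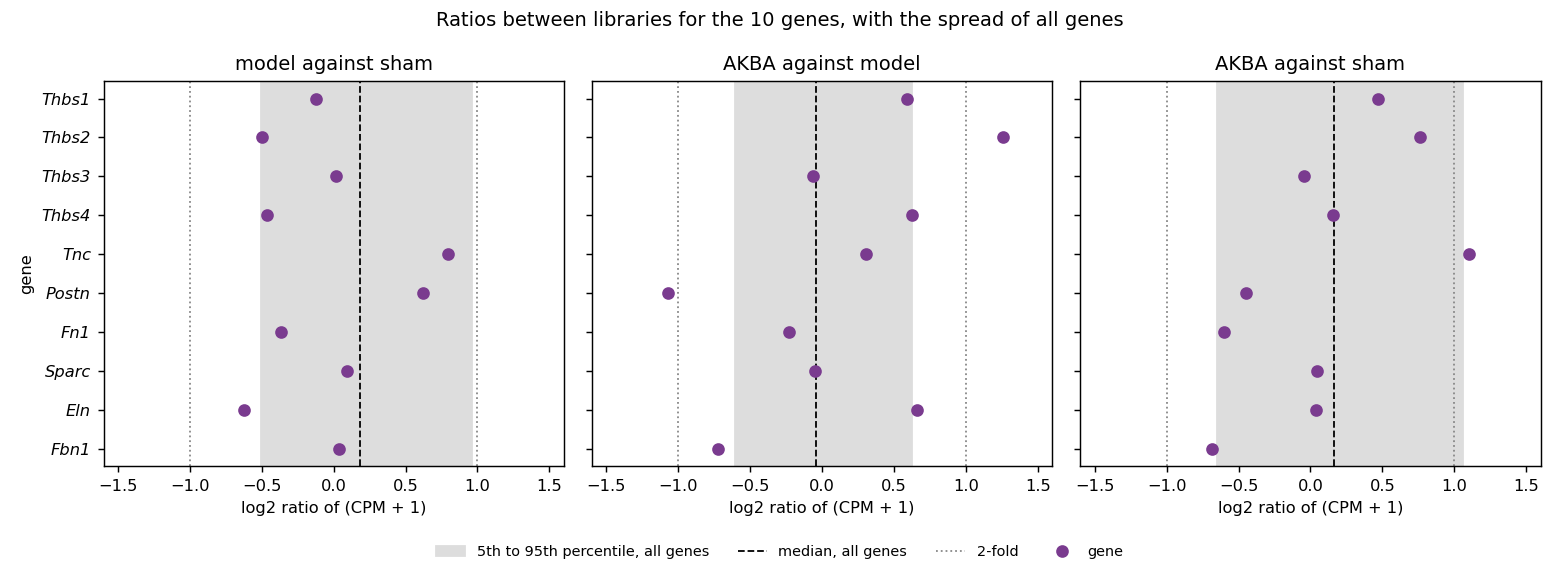
Log2 ratios of (CPM + 1) for the 10 genes (points) in the 3 comparisons, with the 5th to 95th percentile of all kept genes shaded, their median dashed and the 2-fold lines dotted. Thbs2 (1.26) and Postn (-1.07) lie beyond the 2-fold lines for AKBA against model, and Tnc (1.10) does so for AKBA against sham.

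The thrombospondins are calcium-binding glycoproteins of 2 structural kinds. Thbs1 and Thbs2 encode the trimeric forms, which restrain blood vessel growth through the receptor CD36 and bind CD47, and thrombospondin 1 also activates latent TGF-beta. Thbs3 and Thbs4 encode pentameric forms, and thrombospondin 4 binds the calcium channel subunit encoded by Cacna2d1 and is abundant in tendon and muscle.

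Thbs2 had 425 CPM in AKBA, 177 CPM in model and 250.3 CPM in sham. It was thus highest in AKBA and lowest in model. The CPM ratio was 2.41 for AKBA against model (95% counting interval 2.36 to 2.45), 1.70 for AKBA against sham (1.67 to 1.73) and 0.707 for model against sham (0.692 to 0.722). Among all kept genes 1.89% had a higher log2 ratio of AKBA to model than Thbs2.

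Thbs1 followed the same order, with 183 CPM in AKBA, 121 CPM in model and 132 CPM in sham. Its CPM ratio was 1.51 for AKBA against model (1.48 to 1.55), 1.39 for AKBA against sham (1.35 to 1.42) and 0.917 for model against sham (0.892 to 0.942). With TMM scaling the log2 ratio of model to sham was -0.34 in place of -0.12. Thrombospondin 1 is also a platelet protein. The 8 platelet markers summed to 29.0 CPM in AKBA, 34.0 CPM in model and 25.5 CPM in sham, and their part in the Thbs1 values was not tested. Of these markers 6, 6 and 8 had counts in the same libraries, and Ppbp and Gp1bb were at 0 in AKBA and in model.

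Thbs4 had 636 CPM in AKBA, 412 CPM in model and 569.6 CPM in sham. The CPM ratio was 1.54 for AKBA against model (1.52 to 1.56) and 1.12 for AKBA against sham (1.10 to 1.13), and the second of these turned with TMM scaling (log2 ratio -0.005). The model library stood apart from the others, at 0.724 of the sham level (0.714 to 0.734). The summed level of the muscle genes in AKBA was 6.88 times that in model, and in model 2.07 times that in sham. The tendon markers found in the table, 6 of the 7 listed, summed to 70.5 CPM in AKBA, 97.2 CPM in model and 71.5 CPM in sham. Of these, Fmod gave most of the sum, with 60.2 CPM in AKBA, 92.4 CPM in model and 66.2 CPM in sham. The other tendon markers found (Scx, Tnmd, Mkx, Kera and Comp) had low levels and were each highest in AKBA. Kera, for example, had 3.93 CPM in AKBA, 0.872 CPM in model and 2.035 CPM in sham, and Mkx was at 0 in model and in sham. What part muscle or tendon tissue had in the Thbs4 values was not tested.

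In CPM, Thbs3 was the level member of the family. It had 50.8 CPM in AKBA, 53.2 CPM in model and 52.5 CPM in sham, and its ratio of model to sham, 1.01, had a counting interval of 0.970 to 1.06. Neither that interval nor the one for AKBA against sham (0.927 to 1.01) excluded equal CPM. With TMM scaling the Thbs3 log2 ratios were -0.195 for model against sham and -0.209 for AKBA against sham. Its levelness against sham thus depended on the scaling. The ratio of AKBA to model was 0.955 (0.917 to 0.995).

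Tenascin C, encoded by Tnc, is a large hexameric glycoprotein of developing and injured tissue that modulates adhesion to fibronectin. Tnc had 171 CPM in AKBA, 138 CPM in model and 79.1 CPM in sham. Both crushed nerves lay above sham, at 2.16 times its level in AKBA (2.09 to 2.23) and 1.75 times in model (1.69 to 1.80). The AKBA level was 1.24 times the model level (1.21 to 1.27). The log2 ratio of AKBA to sham, 1.10, was exceeded by 4.55% of all genes. It came to 0.94 with TMM scaling and so fell short of 2-fold there.

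Periostin, encoded by Postn, is a ligand of integrins on fibroblasts and other cells and takes part in collagen assembly. Postn had 617 CPM in AKBA, 1297 CPM in model and 842 CPM in sham. Model was highest and AKBA lowest. The CPM ratio was 0.476 for AKBA against model (0.471 to 0.481), 0.733 for AKBA against sham (0.725 to 0.742) and 1.54 for model against sham (1.53 to 1.56). Among all genes 98.9% had a higher log2 ratio of AKBA to model.

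Tnc and Postn differed by at least 2-fold in 1 comparison each, and Thbs4 had the highest AKBA to model ratio of the thrombospondins with an entry in the promoter table (Thbs1, Thbs3 and Thbs4). The 300 bases around the start site of these 3 genes, 250 before and 50 after, are given here to set the promoter letters beside their different patterns. Sequences are from RefSeq, build GRCr8, 5′ to 3′ on the gene's strand: Tnc at chr5:82476082-82476381 on the minus strand, Postn at chr2:140677811-140678110 on the plus strand and Thbs4 at chr2:25760296-25760595 on the minus strand. Capitals mark the TATA box letters TATAAA, the longer form TATATAA and the GC box GGGCGG, on either strand.
Tnc: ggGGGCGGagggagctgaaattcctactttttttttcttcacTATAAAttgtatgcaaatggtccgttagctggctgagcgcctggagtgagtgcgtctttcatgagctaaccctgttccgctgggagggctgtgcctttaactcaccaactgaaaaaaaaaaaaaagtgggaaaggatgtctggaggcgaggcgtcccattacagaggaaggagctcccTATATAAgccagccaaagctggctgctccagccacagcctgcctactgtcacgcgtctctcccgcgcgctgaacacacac
Postn: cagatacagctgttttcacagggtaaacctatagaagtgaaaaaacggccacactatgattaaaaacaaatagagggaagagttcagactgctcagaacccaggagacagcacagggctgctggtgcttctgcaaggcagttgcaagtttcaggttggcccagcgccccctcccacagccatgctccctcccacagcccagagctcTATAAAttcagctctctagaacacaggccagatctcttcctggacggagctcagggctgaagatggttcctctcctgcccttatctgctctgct
Thbs4: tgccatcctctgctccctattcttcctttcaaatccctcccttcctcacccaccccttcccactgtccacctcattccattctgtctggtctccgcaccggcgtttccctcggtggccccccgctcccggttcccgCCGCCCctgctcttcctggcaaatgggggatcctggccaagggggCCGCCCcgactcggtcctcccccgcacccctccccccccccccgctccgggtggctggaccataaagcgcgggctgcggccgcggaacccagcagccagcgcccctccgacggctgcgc
The Tnc promoter held TATATAA with its first base at -30 from the start site, TATAAA at -208 and a GC box at -248. The Postn promoter held TATAAA at -44. The Thbs4 promoter held neither TATA form and had GC boxes on the opposite strand at -114 and -69. Of 33469 rat promoters of this length, 14.2% held TATAAA, 3.93% held TATATAA and 33.1% held GGGCGG on either strand. The AP-1 letters TGANTCA, in 7.33% of promoters, and the CArG box, in 1.64%, were in none of the 7 member promoters searched (Thbs1, Thbs3, Thbs4, Tnc, Postn, Sparc and Fbn1). These matches describe letters and are not evidence of factor binding.

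Fibronectin, encoded by Fn1, is an adhesive glycoprotein of plasma and matrix that integrins bind. Fn1 had 2337 CPM in AKBA, 2743 CPM in model and 3543 CPM in sham. Sham was highest and AKBA lowest. The CPM ratio was 0.852 for AKBA against model (0.847 to 0.857), 0.660 for AKBA against sham (0.656 to 0.664) and 0.774 for model against sham (0.770 to 0.778). Both crushed nerves thus lay below sham, also with TMM scaling (log2 ratio -0.77 for AKBA and -0.59 for model).

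SPARC (osteonectin) binds collagen and calcium and is made by Schwann cells and fibroblasts. Sparc had 7610.0 CPM in AKBA, 7867 CPM in model and 7384 CPM in sham. Its ratio of model to sham was 1.07 (1.06 to 1.07) and that of AKBA to model 0.967 (0.964 to 0.971). With TMM scaling the log2 ratio of model to sham changed from 0.09 to -0.13, so no order of the libraries is read from it.

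Elastin, encoded by Eln, gives vessels and the nerve sheath their recoil. Eln had 412 CPM in AKBA, 261 CPM in model and 402 CPM in sham. AKBA and sham were close and model was low. The CPM ratio was 1.58 for AKBA against model (1.56 to 1.61), 0.649 for model against sham (0.638 to 0.661) and 1.03 for AKBA against sham (1.01 to 1.04). The last of these turned with TMM scaling (log2 ratio -0.13). Eln had the lowest ratio of model to sham among the members, below 96.4% of all genes.

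Fibrillin 1, encoded by Fbn1, is the main microfibril protein. Fbn1 had 1579 CPM in AKBA, 2609 CPM in model and 2544 CPM in sham. Model and sham were close, with a ratio of 1.03 (1.02 to 1.03) that turned below 1 with TMM scaling (log2 ratio -0.18), and AKBA was lower than both. The CPM ratio was 0.605 for AKBA against model (0.601 to 0.609) and 0.621 for AKBA against sham (0.617 to 0.625). Eln and Fbn1, whose proteins share a fibre, thus stood on opposite sides for AKBA against model.

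Fibroblasts make much of this matrix. The 12 fibroblast markers all had counts in every library and summed to 46000.0 CPM in AKBA, 36960 CPM in model and 45809 CPM in sham, mostly from Col3a1, Col1a1 and Dcn. By single genes the list was mixed: 4 of 12 were above 0 and 8 below for AKBA against model, with a median log2 ratio of -0.37 beside -0.04 for all genes. Against sham 11 of 12 were below 0 in AKBA and 10 of 12 in model, also with TMM scaling. The smooth muscle and pericyte list, whose cells make elastin in vessel walls, summed to 4040 CPM in AKBA, 2950 CPM in model and 1953 CPM in sham. By single genes 8 of these 12 were above 0 and 4 below for AKBA against model. Those below were Notch3, Rgs5, Kcnj8 and Abcc9. Other marker lists also differed between the libraries. The 12 macrophage markers summed to 3409 CPM in AKBA, 1811 CPM in model and 2827 CPM in sham, with Lyz2 and Gpnmb highest by mean level. By single genes 5 of the 12 were above 0 and 7 below for AKBA against model. The 10 adipocyte markers summed to 3485 CPM in AKBA, 7107 CPM in model and 12845 CPM in sham. Perineurial, endothelial and red cell sums were each highest in model and lowest in sham. By single genes 3 of the 10 endothelial markers were above 0 and 7 below for AKBA against model. Vwf, highest of these by mean level, had 206 CPM in AKBA, 147 CPM in model and 227 CPM in sham. The 8 cartilage markers summed to 442 CPM in AKBA, 755 CPM in model and 214 CPM in sham, with Matn1 at 0 throughout. Of these 4 passed the level filter, with 1 above 0 and 3 below for AKBA against model. Col9a1 had 40.1 CPM in AKBA and 246 CPM in model, and Col2a1 had 110 CPM in AKBA and 72.4 CPM in model. The 8 skin and hair markers summed to 115 CPM in AKBA, 15.4 CPM in model and 15.3 CPM in sham, with Krt31 at 0 in model and in sham. The part of cell makeup in the members' values was not tested. In such bulk tissue, fewer cells of a type and less RNA per cell cannot be told apart.

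The transcript table placed the whole count of Thbs1, Thbs2, Thbs3, Thbs4 and Eln on 1 RefSeq transcript each. For Postn it named 4 transcripts, whose sum equalled the gene count in each library. XM_006232337 was the main one, at 53.7% of the Postn count in AKBA, 65.4% in model and 67.2% in sham. NM_001108550 held 21.5% in AKBA, 29.5% in model and 26.9% in sham. XM_006232336 held 20.2% in AKBA (19.9 to 20.6), 2.55% in model (2.46 to 2.64) and 4.66% in sham (4.50 to 4.83). At the level of single transcripts XM_006232336 stood at 125 CPM in AKBA, 33.1 CPM in model and 39.3 CPM in sham, a log2 ratio of 1.89 for AKBA against model, while the gene as a whole was lower in AKBA. Of the genes at least 2-fold lower in AKBA than in model, 16 had 2 or more placed transcripts that together held at least 1000 counts in each library. Of these genes 4 (25.0%) had a transcript, at a mean of at least 1 CPM, that was at least 2-fold higher. No change of isoform is read from the Postn shares, since the sources used here do not say how reads were divided among overlapping transcripts.

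The 11 placed transcripts of Fn1 kept nearly constant shares. NM_019143 held 89.2% of the count in AKBA, 89.9% in model and 89.0% in sham, and no other Fn1 transcript reached 10%.

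The placed transcripts of Tnc covered 91.2% of the gene count in AKBA, 91.5% in model and 83.7% in sham. XM_008763758 was the main one, at 65.7% of the gene count in AKBA, 62.2% in model and 62.3% in sham. NM_053861 held 5.67% in AKBA, 4.64% in model and 20.8% in sham. XM_008763756 had 1589 counts in AKBA, 1016 in model and 0 in sham. XM_008763754 had 1467 counts in AKBA, 1033 in model and 35 in sham. No change of isoform is read from this, since the sources used here do not say how reads were divided among overlapping transcripts.

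For Fbn1 the placed transcripts covered 88.3% of the gene count in AKBA, 58.2% in model and 24.2% in sham, so its transcript levels cannot be compared between libraries. XM_008762203 had 84851 counts in AKBA, 77927 in model and 6380 in sham. XM_006234935 had 40420 counts in AKBA, 57638 in model and 39370 in sham. Shifts in a transcript's share of the placed counts were common. How often the placed part of a gene count differs, as for Fbn1, was not counted. Among 2958 genes with 2 or more placed transcripts and 1000 counts in each library, 32.1% had a transcript whose share differed by at least 10 percentage points between AKBA and model, 36.5% between AKBA and sham and 33.6% between model and sham.

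**Figure D3:**
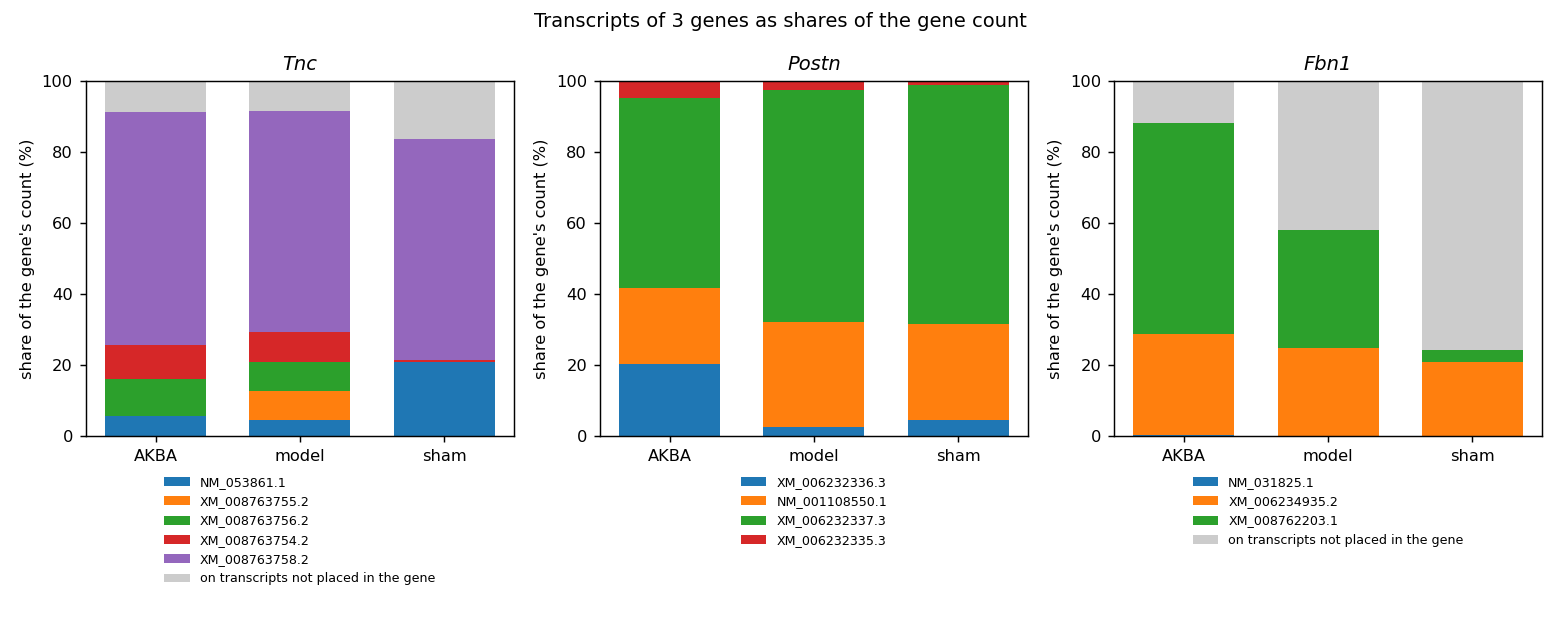
Share of the gene count (vertical axis, percent) held by each placed transcript of Tnc, Postn and Fbn1 in the AKBA, model and sham libraries, with the rest in grey. No change of isoform is read from these shares. XM_006232336 takes 20.2% of Postn in AKBA against 2.55% in model and 4.66% in sham, and the grey part of Fbn1 is largest in sham.

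The genes nearest to the 3 members past 2-fold were sought over their log2 ratios of model to sham and of AKBA to model, among 11860 genes at a mean of at least 5 CPM. With 3 libraries such likeness rests on very few values. Nearest to Thbs2 were Cuedc2 (49.5 CPM in AKBA, 19.7 in model and 28.2 in sham), Oprk1 and Vav1, and 21 genes lay within a distance of 0.25. Nearest to Postn were Pdilt, Rcan2 (37.7 CPM in AKBA, 74.9 in model and 48.7 in sham) and the haemoglobin gene Hba1 (394 CPM in AKBA, 848 in model and 516 in sham), with 22 genes within that distance. Nearest to Tnc were Smox (34.5 CPM in AKBA, 27.6 in model and 15.5 in sham), Cdh6 and Mpg, with 272 genes. Thbs2 and Postn thus had fewer near genes than Tnc. Their AKBA to model ratios lay further out among all genes, where few genes lie, so nothing more is read from these counts.

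Other matricellular genes were read from a list of 20, of which 19 were in the table and 15 passed the level filter. For AKBA against model 3 were at least 2-fold higher and none lower, beside 2.69% and 1.37% of all genes. The 3 became 1 with a pseudocount of 5 CPM and 2 with a filter at 5 CPM. Smoc2, a secreted SPARC relative, had 141 CPM in AKBA, 63.3 CPM in model and 133 CPM in sham. Wisp2, a CCN family gene, had 60.3 CPM in AKBA, 29.1 CPM in model and 60.2 CPM in sham. Both were low in model and nearly equal in AKBA and sham, as Eln was. Tnn, the gene of tenascin N, had 231 counts in AKBA, 41 in model and 17 in sham.

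For model against sham the same list had 1 gene at least 2-fold higher and 2 lower (Smoc2 and Wisp2). The higher one was Cyr61, a growth-factor-induced CCN gene, with 76.4 CPM in AKBA, 102 CPM in model and 25.3 CPM in sham. Cyr61 and Tnn were the 2 at least 2-fold higher in AKBA than in sham. With a pseudocount of 5 CPM the list had 1 higher and 1 lower for model against sham, and 1 higher for AKBA against sham. The list median was 0.16 for model against sham beside 0.18 for all genes, and -0.05 for AKBA against model beside -0.04.

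Of 20 elastic-fibre and microfibril genes, all kept, 1 was at least 2-fold apart for AKBA against model, a share near the 4.05% of all genes, and none was with a pseudocount of 5 CPM. In the other comparisons none was. Loxl4, a lysyl oxidase of the family that cross-links elastin and collagen, had 28.4 CPM in AKBA, 12.8 CPM in model and 19.4 CPM in sham. For AKBA against model 6 were above 0 and 14 below, with a median log2 ratio of -0.23 beside -0.04 for all genes, the side on which Fbn1 and not Eln lay. Among 18 genes of receptors for these proteins none passed 2-fold between model and sham or between AKBA and model. Sdc1, the gene of syndecan 1, passed it for AKBA against sham, with 19.5 CPM in AKBA, 12.3 CPM in model and 7.36 CPM in sham. As 1 of 18 it lay near the 7.91% of all genes, and with a pseudocount of 5 CPM it did not pass. None of 12 genes of the TGF-beta pathway, which drives many of these matrix genes, passed 2-fold in any comparison, and their median for AKBA against model was 0.02.

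**Figure D4:**
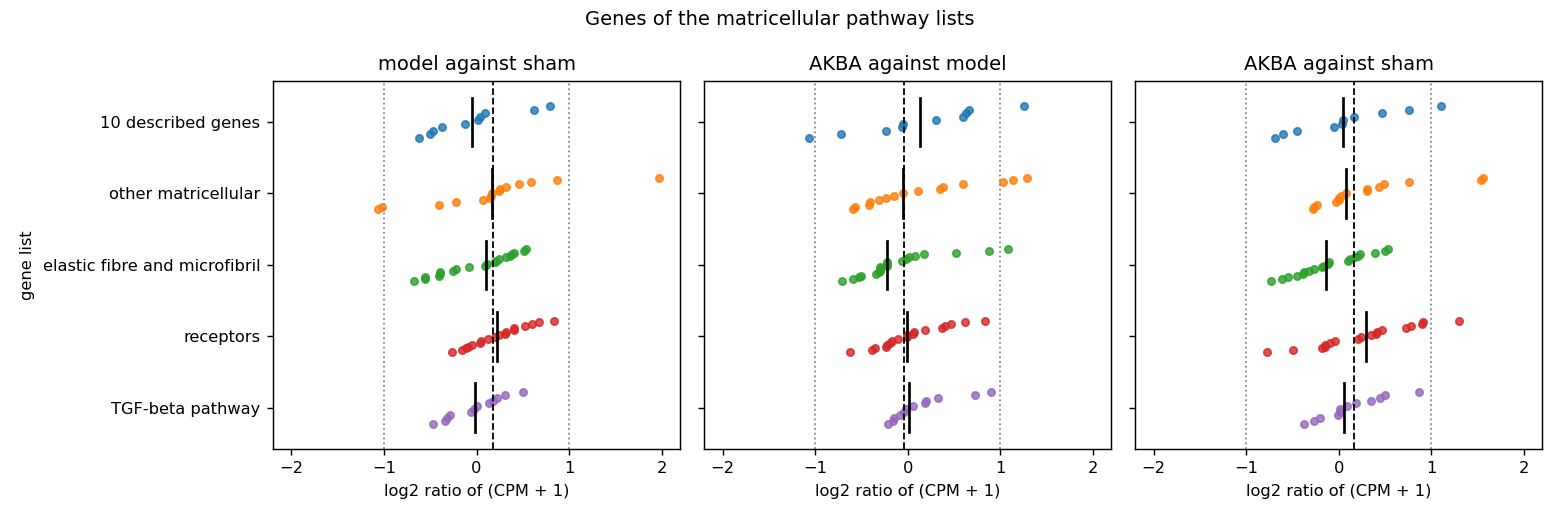
Log2 ratios of (CPM + 1) for each gene of the 10 described and of 4 related lists (rows) in the 3 comparisons, with list medians as black bars, the median of all kept genes dashed and the 2-fold lines dotted. The list medians lie between -0.23 and 0.29, and single genes such as Cyr61 at 1.97 for model against sham lie far from them.

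The direction of Thbs2 and Postn for AKBA against model was the same in every setting tried, but these settings could hardly have turned it. There were 10 alternatives of scaling, pseudocount, level filter and transcript sums. Over them the log2 ratio of Thbs2 lay between 1.24 and 1.31 and that of Postn between -1.07 and -1.02. The level filters and transcript sums could not move these ratios, as both genes passed each filter and their transcript sums equalled the gene counts. A pseudocount added to both libraries cannot turn a direction. The scalings and other totals shifted these log2 ratios by at most 0.052. The log2 ratio of Tnc for AKBA against sham lay between 0.94 and 1.22, across the 2-fold line. Fbn1 for AKBA against sham turned to 1.18 with the sum of placed transcripts, which left out most of its sham count.

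**Figure D5:**
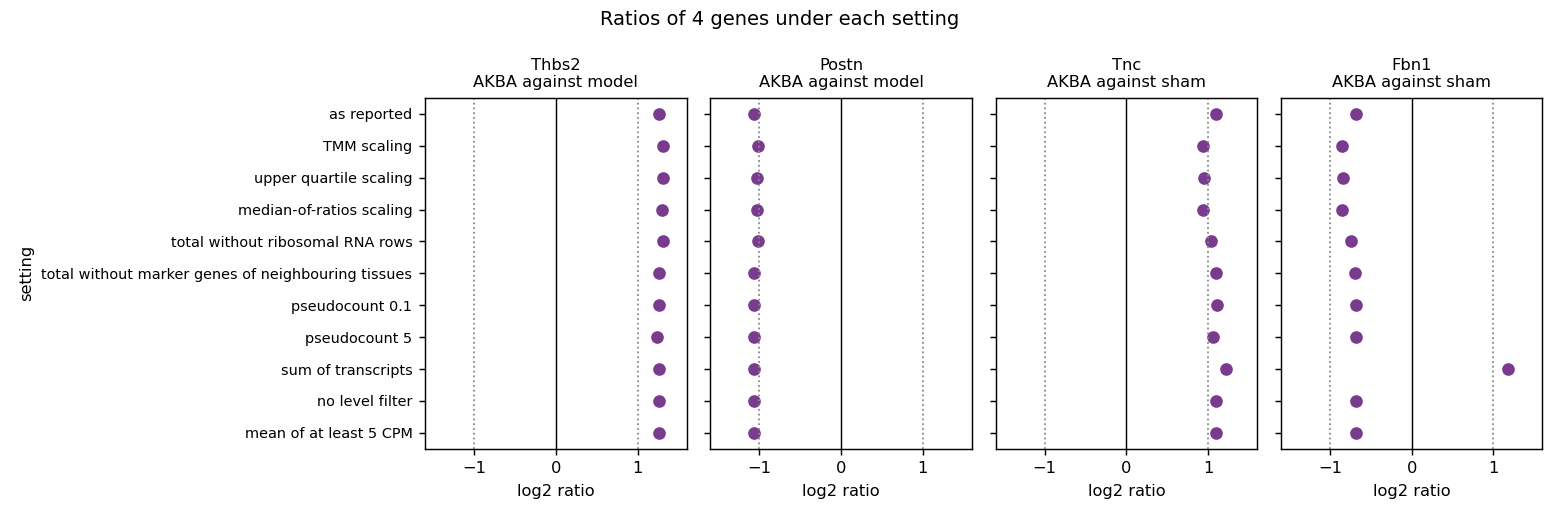
Log2 ratios (horizontal axes) of Thbs2, Postn, Tnc and Fbn1 under each setting (rows), with the 2-fold lines dotted. Thbs2 and Postn stay beyond 2-fold in every row, Tnc lies between 0.94 and 1.22, and Fbn1 changes side at the sum of transcripts.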

How the data were processed

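Counts per gene and per transcript were deposited by the authors as whole numbers with no normalization. In the deposited tables each count of the model library was followed by 2 text characters, which were removed. Columns were assigned to groups through the key in the series' design text. Libraries were made from probe-depleted RNA without rRNA, as fragments of 100 to 300 bp primed at random, per the labels' protocols. Limma, DESeq2, StringTie, HISAT2 and bcl2fastq 2.0 stand in the submitters' processing notes without roles, as does the mouse build mm10, although the row identifiers are rat symbols and accessions. The sources used here do not give the aligned genome, the strand setting or the counting of shared reads. The 2 lncRNA tables, with 6 columns, were not used.

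CPM was computed as count over the library's total gene count, and ratios as log2 of (CPM + 1) with Python 3.11.15, pandas 2.3.3 and scipy 1.17.1. The level filter was a mean of 1 CPM or more. Ratio and share intervals are exact 95% Clopper-Pearson limits and, since PCR copies are not independent molecules, cover counting error only. The limit that a count of 0 allows, 3 counts, is 0.0333 CPM in AKBA, 0.0335 in model and 0.0404 in sham. No test was run, as each group had 1 library. TMM factors came from edgeR 4.0.16. Transcripts were placed in genes by accession through the RefSeq gene table of GRCr8, versions ignored, which placed 32086 of 55767. The ratios and intervals were tested on simulated data.

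All 10 members were named. Of the pathway lists the genes at least 2-fold apart were named, up to 4 per list and comparison, with the 3 nearest genes by pattern for members past 2-fold and transcripts with at least 10% of a member's transcript counts. Fbn1 and Tnc transcripts are given as shares of the gene count. Members and lists were chosen with earlier results of these data known, and the promoter motifs and the 10-point share threshold after values were seen. Alternatives were 3 scalings, 2 other totals, 2 pseudocounts, 2 level filters, transcript sums and a 1.5-fold threshold.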

Additional observations from a re-analysis of the deposited data

How the results depend on the processing

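No paired analysis was possible because each group had 1 library, and no library could be left out. Of the members at least 2-fold apart, the count of 0 for model against sham became 1 with the sum of transcripts (Fbn1) and 3 at the 1.5-fold threshold. The count of 2 for AKBA against model became 6 at 1.5-fold and was 2 in every other setting, Thbs2 and Postn each time. The count of 1 for AKBA against sham became 0 with TMM, upper quartile and median-of-ratios scaling, 2 with the sum of transcripts (Tnc and Fbn1) and 4 at 1.5-fold. The log2 ratio of Tnc for AKBA against sham was 0.94 with TMM, 0.95 with upper quartile and 0.94 with median-of-ratios scaling. A scaling factor shifts all ratios of a comparison alike by construction, and the Fbn1 shift with transcript sums follows from the 75.8% of its sham count that was on transcripts not placed in the gene. Ratios near 0 changed sign with scaling for Thbs3, Sparc and Fbn1 in model against sham, for Sparc in AKBA against model, and for Thbs4, Sparc and Eln in AKBA against sham. The spread between animals, which these libraries do not show, limits every comparison.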
